A study of Homo sapiens with 5 samples.

Results

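KAT7 was mapped by chromatin immunoprecipitation and sequencing (ChIP-seq) in HCT116, an established human colorectal cancer cell line, and the summits described here are all those of the 2 deposited KAT7 lists. The control list came from cells transfected for 48 h with control siRNA and held 122439 summits. The knockdown list came from cells transfected for 48 h with ENO1-IT1 siRNA and held 24611. Together they made 147050 of the 209263 summits in the series, which also has an H3K27ac list for each siRNA and a list from input DNA, labelled with no siRNA. Every library came from this cell line at passages 16 to 19. Each group was 1 library, so no difference between the siRNAs could be set against replicate error and no test is given. Intervals are exact Clopper-Pearson 95% intervals of shares and cover counting error only. The lists hold no read counts, so the depth of each library is unknown.

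KAT7, also called HBO1, is a histone acetyltransferase of the MYST family that acetylates histones H3 and H4. It works in complexes whose scaffold subunits, of the BRPF or JADE families, steer it to its histone substrates, with ING4 or ING5 and MEAF6 as further subunits. It is known for acetylating chromatin at transcribed genes and for its part in the licensing of replication origins. H3K27ac is a mark of active promoters and enhancers. ENO1-IT1 is a long noncoding RNA named for an intron of the enolase gene ENO1. A summit is the single position at which a called peak is highest, and its score is a -log10 p or q value, so that a higher score means a more confident call within its own list.

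The control list was long and made mostly of low scores, and the knockdown list was shorter with higher scores. The median score was 2.68 in the control and 7.67 after knockdown, the upper quartiles were 4.18 and 14.5, and the highest scores were 113.4 and 188.3. Scores depend on depth, so these values describe each list and show no change in KAT7 binding. The control list held 548 distinct scores and the knockdown list 1154. The 5 most frequent scores of the control list were 2.68, 1.31, 4.28, 2.43 and 6.02, and those of the knockdown list were 5.83, 7.67, 4.09, 9.58 and 11.6. The order of list lengths depended on the score, with a knockdown to control ratio of 0.201 over all summits and of 2.73 for summits scoring at least 10.

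Whether a KAT7 position was listed in the other condition depended on its score. A summit was counted as shared when the other KAT7 list had a summit at most 500 bp away, which held for 8110 control and 7925 knockdown summits. Of the control summits scoring 2 to 3, which were 49.96% of the list, 4.78% (4.61 to 4.95%) had a knockdown partner. The share was 12.4% (11.8 to 13.0%) at scores of 5 to 10, 39.9% (36.2 to 43.7%) at 20 to 50 and 74.3% (62.8 to 83.8%) for the 74 summits scoring 50 or more. Of the knockdown summits, 23.9% (23.1 to 24.7%) of those scoring 5 to 10 had a control partner, against 57.1% (55.3 to 58.9%) at 20 to 50 and 95.2% (93.8 to 96.3%) of the 1243 scoring 50 or more. The control list searched for partners was 122439 summits long and the knockdown list 24611, so the shares of the lists are not on equal terms.

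**Figure D1:**
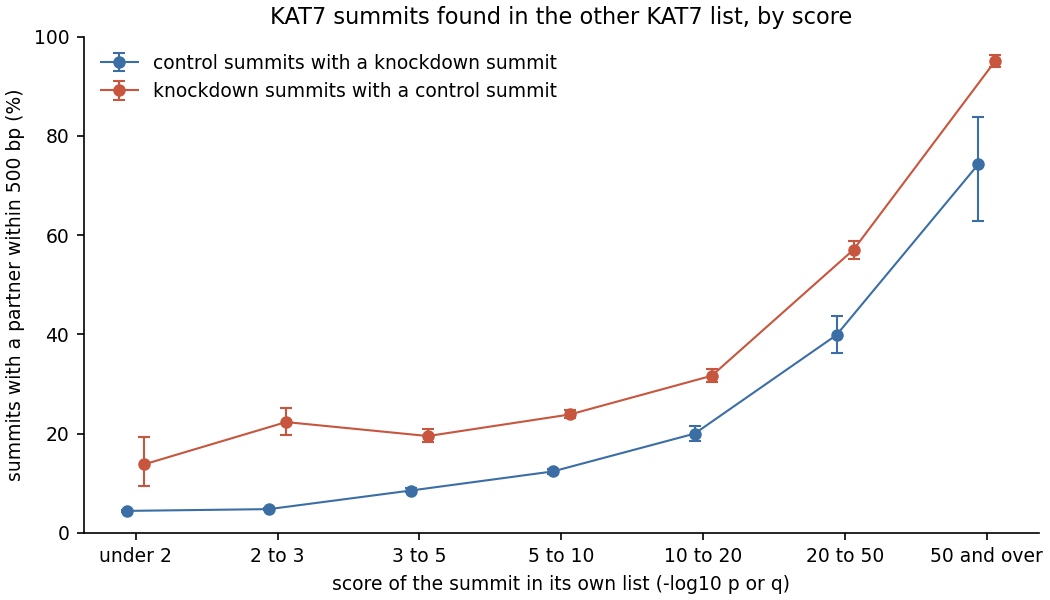
Share of KAT7 summits with a summit of the other KAT7 list within 500 bp (y axis, percent) against the summit's own score (x axis, classes of -log10 p or q), for the control list (blue) and the knockdown list (red), with exact 95% intervals. Both shares are highest at scores of 50 and over, at 74.3% of control and 95.2% of knockdown summits.

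Among the strongest calls, nearly every knockdown position was listed in the control, and the reverse did not hold. Of the 100 highest-scored knockdown summits, 100% (96.4 to 100%) had a control partner somewhere in the control list. Of the 100 highest-scored control summits, 71.0% (61.1 to 79.6%) had a knockdown partner. For the 1000 highest-scored summits these shares were 97.5% (96.3 to 98.4%) and 38.7% (35.7 to 41.8%). When the partner also had to rank among the 100 highest of its own list, the share was 34.0% (24.8 to 44.2%) from either side. The partners of strong knockdown summits were often weak control calls. For knockdown summits scoring 20 to 50 the partner had a median control score of 4.02, at percentile 74.1 of the control list, where percentile 100 is the highest score.

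The 10 highest-scored summits of each list shared 5 positions. In hg19, counted from 1, their control positions were 4247651 on chromosome 19, 99438703 on chromosome 10, 3899446 on chromosome 16, 102402210 on chromosome 2 and 53935392 on chromosome X. The chromosome 19 summit ranked 1 in the control, and its partner 7 bp away was 1 of 6 knockdown summits that held the highest score of 188.3. All 10 knockdown summits had a control partner at most 28 bp away and an H3K27ac summit within 500 bp in both conditions. The lowest control rank among the partners was 144, for the knockdown summit on chromosome 5 at 170016754, whose knockdown score was 187.6 and control score 37.1.

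In the control list 8 of the 10 highest summits had a partner, at most 14 bp away. The control summit on chromosome 18 at 19133427 ranked 6 with a score of 103.7, and its knockdown partner 1 bp away ranked 1004 with a score of 55.7. The other two had none. On chromosome X at 99283433 (rank 8, score 101.0) the nearest knockdown KAT7 summit was 58754 bp away. On chromosome 3 at 14222343 (rank 10, score 86.1) it was 69592 bp away. Neither had an H3K27ac summit within 500 bp, whereas the 8 with a partner had one in both conditions.

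Shared KAT7 positions coincided closely. Taking each summit with its nearest neighbour in the other list, where each was the other's nearest and they were at most 500 bp apart, gave 7731 pairs. The median distance within a pair was 9 bp, 54.9% of pairs were at most 10 bp apart and 83.8% at most 50 bp. The same pairing of the H3K27ac lists gave 19946 pairs with a median distance of 92 bp, of which 10.8% were at most 10 bp apart.

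**Figure D2:**
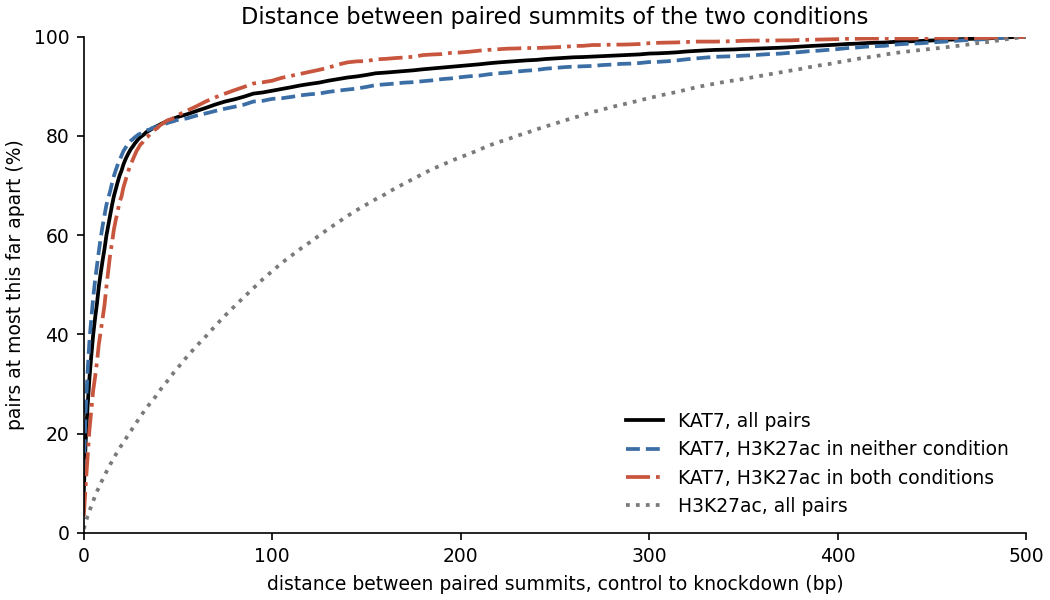
Cumulative share of paired summits (y axis, percent) against the distance between the control and the knockdown summit of a pair (x axis, bp), for all KAT7 pairs (black), KAT7 pairs with H3K27ac in neither condition (blue, dashed) or in both (red, dash-dotted), and all H3K27ac pairs (grey, dotted). The KAT7 curves rise steeply, with 83.8% of all KAT7 pairs within 50 bp against 33.3% of H3K27ac pairs.

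KAT7 pairs lay on both sides of the H3K27ac map. Of the 7731 pairs, 4097 (53.0%) had no H3K27ac summit within 500 bp in either condition, 2462 (31.8%) had one in both and 1172 in a single condition. Among KAT7 summits in general, outside the 5 antigen receptor windows described further on, 3.67% (3.56 to 3.77%) of the control list and 19.1% (18.7 to 19.6%) of the knockdown list had H3K27ac of their own condition within 500 bp. Pairs thus had H3K27ac more often than KAT7 summits in general. The pairs without H3K27ac were at a median distance of 6 bp and those with H3K27ac in both conditions at 13 bp. The rank correlation between the scores of a pair differed between pairs with and without H3K27ac. Across the pairs with H3K27ac in both conditions Spearman's rho between control and knockdown scores was 0.62. It was 0.26 across the pairs with H3K27ac in a single condition, 0.10 across those with none, and 0.40 across all pairs. Split by score alone, it was 0.52 for pairs with a knockdown score of at least 20, 0.18 for those under 20, and 0.05 for pairs with a control score under 3. A split by score narrows the range of a score being correlated, which by itself can lower rho. Control scores under 3 were also mostly ties, at 2.68, 1.31 and 2.43, so these values do not show that the relation varied with score. Split by both, pairs with a knockdown score of at least 20 gave 0.55 with H3K27ac in both conditions (1680 pairs) and 0.014 with none (634 pairs). Pairs under 20 gave 0.25 (782 pairs) and 0.12 (3463 pairs). Most pairs without H3K27ac thus had a knockdown score under 20, so the split by H3K27ac narrows the range of scores as well. The split by both does not even this out, since 92.1% of all knockdown summits scoring 50 or more had H3K27ac. These values therefore do not show that the relation itself varied with H3K27ac. For H3K27ac itself rho was 0.76 across its pairs. These are descriptions over sites of single libraries, which share their depth and are not independent.

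The rank of a shared position after knockdown was highest for the pairs that ranked highest in the control. Pairs under percentile 25 of the control list had a median knockdown percentile of 60.3, with quartiles of 22.6 and 82.5. The median was 54.0 for pairs at control percentiles of 25 to 50, 60.3 at 50 to 75, 67.7 at 75 to 90 and 87.7 at 90 to 99. For the 426 pairs at control percentile 99 and over it was 98.0, with a lower quartile of 91.0. Of the 2075 pairs above percentile 90 of the control list, 1102 (53.1%) were also above percentile 90 after knockdown. At the other extreme, 502 of the 3833 pairs with a control score under 3 were above percentile 90 of the knockdown list. Over all 7731 pairs, 2072 were above it, a larger share than among these weak control calls and a smaller one than 53.1%.

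The pairs that moved farthest in rank were taken from the 2884 pairs with a score of at least 20 in either list. The largest fall was on chromosome 15 at 68132414, from a control score of 48.3 (percentile 99.9) to a knockdown score of 1.32 (percentile 0.221), with the summits 68 bp apart. This was the only 1 of the 5 largest falls with an H3K27ac summit within 500 bp, 24 bp away in the control list and 242 bp away in the knockdown list. The next falls were at 42676507 on chromosome 20, 77388664 on chromosome 14, 149551164 on chromosome X and 3488345 on chromosome 20. Their control scores were 25.7, 20.6, 25.1 and 22.8, their knockdown scores 2.16, 2.06, 3.21 and 4.09, and none had H3K27ac within 2 kb.

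The 5 largest rises all started from the control score of 1.31, which 26261 control summits shared. They were at 127792102 on chromosome 8, 28246842 on chromosome X, 94360701 on chromosome 12, 61858948 on chromosome 1 and 147863161 on chromosome 2. Their knockdown scores were 74.8, 73.5, 70.9, 70.9 and 63.6. All 5 had a control H3K27ac summit within 164 bp, and the first 4 also had a knockdown H3K27ac summit within 23 bp. At the chromosome 2 position the nearest knockdown H3K27ac summit was 74060 bp away. The rises thus lay on H3K27ac in the control, and 4 of the 5 largest falls did not. Of all knockdown summits scoring 50 or more, as the rises did, 92.1% had H3K27ac of their own condition within 500 bp. Of all control summits scoring 20 to 50, as the falls did, 32.6% had it. The contrast therefore does not set these pairs apart from other summits with such scores.

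Both KAT7 lists were spread more evenly over the genome than H3K27ac. In 2913 windows of 1 Mb that held any immunoprecipitated summit, the control list had a mean of 42.0 summits per window with an SD between windows of 11.2, a coefficient of variation of 26.7%. The knockdown list had a mean of 8.45 and an SD of 5.12, a coefficient of variation of 60.6%. A list with fewer summits per window varies more by counting alone, so these coefficients are not on equal terms. The variance divided by the mean was 3.01 in the control and 3.10 after knockdown. Both lay above the 1 of pure counting, so each list varied more than by counting. This measure also depends on the mean, so similar values do not make the lists equally even. For H3K27ac the variance divided by the mean was 17.5 in the control. The quartiles were 36 and 49 summits per window in the control and 5 and 11 after knockdown. Each window held a control KAT7 summit, and 22 held no knockdown one.

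Windows rich in H3K27ac held no more control KAT7 summits than others, and more knockdown ones. The windows were ranked by their H3K27ac summits, summed over both conditions, and divided into 5 equal classes. The class with the most H3K27ac, a median of 53 summits per window, held 19.7% (19.5 to 19.96%) of the control KAT7 list, against 27.1% (26.6 to 27.7%) of the knockdown one. The class with the least, a median of 0, held 21.0% (20.7 to 21.2%) and 14.7% (14.3 to 15.1%). The gap between the lists closed when summits scoring under 10 were left out, as the control share rose and the knockdown share fell. Among summits scoring at least 10, the class richest in H3K27ac held 24.8% (23.4 to 26.3%) of those in the control list and 25.2% (24.3 to 26.1%) of those in the knockdown list, and the intervals overlapped. For summits scoring 20 or more it held 27.2% (24.01 to 30.5%) of the control and 25.9% (24.6 to 27.3%) of the knockdown list.

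The chromosomes densest in the control list were not those densest after knockdown. Over the span of its summits, chromosome 13 had the most control summits per Mb, at 47.1, and chromosome 4 followed at 45.9. Apart from chromosome Y, at 14.04, the lowest was chromosome 9 at 34.9. The span includes stretches in which no summit was listed, and their length differs between chromosomes, so this order depends in part on them. After knockdown chromosome 19 was densest at 14.8 per Mb and chromosome 22 next at 13.7, and chromosome 4 had the fewest of chromosomes other than Y, at 6.57. Chromosome 19 also had the highest share of control summits with a knockdown partner, 12.8%, and chromosome 4 the lowest at 4.80%. More knockdown summits per Mb by themselves raise this share. Of knockdown summits, 37.2% on chromosome 19 and 33.1% on chromosome 4 had a control partner. Chromosome ends held more of the knockdown list. Within 5 Mb of the outermost summits lay 6.92% (6.77 to 7.06%) of the control KAT7 list, 13.6% (13.2 to 14.01%) of the knockdown KAT7 list and 14.7% (14.3 to 15.1%) of control H3K27ac summits.

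Summits were also spaced differently along the chromosomes. The median distance to the next summit of the same list was 15427 bp in the control list, against 70245 bp in the knockdown list, and 8.88% and 4.95% of these distances were at most 2 kb. For control H3K27ac, whose summits gather within regions, 32.8% were. The most isolated strong summits, among those scoring at least 20, included the first summit of chromosome 1 in both lists. It lay at 10226 in the control (score 28.8) and at 10100 after knockdown (score 120.3), 126 bp apart, with H3K27ac within 500 bp. The first summit of a chromosome has a neighbour on a single side, which by itself favours its listing as isolated. The others in the control lay on chromosome X at 23485347 (score 20.5), with the nearest knockdown summit 72331 bp away, and on chromosome 10 at 5577521 (score 27.2), with a knockdown summit 1 bp away. Those after knockdown lay on chromosome 6 at 122423433 (score 69.8) and chromosome X at 89040637 (score 43.1), with control summits 7 and 8 bp away.

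The densest windows of the control list were not those of the knockdown list. In the control they lay on chromosome 2 at 61000001 to 62000000 (80 summits, against 6 after knockdown), chromosome 10 at 8000001 to 9000000 (77 and 17), chromosome 2 at 32000001 to 33000000 (76 and 8), chromosome 6 at 27000001 to 28000000 (76 and 34) and chromosome 2 at 203000001 to 204000000 (73 and 7). The median control score was 2.68 in each of these 5. The chromosome 6 window, with 60 control H3K27ac summits, was the only 1 of them that was also among the 10 densest after knockdown, at rank 8. General knowledge of the hg19 map places replication-dependent histone genes and a large group of transfer RNA genes in that part of chromosome 6.

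After knockdown, 4 of the 5 densest windows lay where general knowledge of the hg19 map places antigen receptor loci. T and B lymphocytes assemble their receptors by joining V, D and J gene segments at these loci, and epithelial cells do not. The window on chromosome 14 at 22000001 to 23000000, in the region of the T cell receptor alpha and delta genes (TRA and TRD), held 88 knockdown and 36 control KAT7 summits. That on chromosome 14 at 106000001 to 107000000, in the region of the immunoglobulin heavy chain genes (IGH), held 66 and 22. That on chromosome 7 at 142000001 to 143000000, in the region of the T cell receptor beta genes (TRB), held 60 and 34. That on chromosome 22 at 23000001 to 24000000, with part of the immunoglobulin lambda genes (IGL), held 41 and 25. The remaining window of the 5 lay on chromosome 19 at 1000001 to 2000000, with 42 and 54 summits and 121 knockdown H3K27ac summits.

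The window at rank 6 fell in the same class. It lay on chromosome 2 at 89000001 to 90000000, where the immunoglobulin kappa genes (IGK) lie, and held 37 knockdown and 18 control summits. It shared its rank with a chromosome Y window and was chosen after its values were seen, as was the grouping of the 5 windows. No hg19 annotation was used, so summits were not assigned to V, D or J segments. RefSeq for GRCh38.p14, used for names alone, lists TRA and IGH on chromosome 14, TRB on chromosome 7, IGL on chromosome 22 and IGK on chromosome 2.

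More summits after knockdown than in the control was a rare pattern. It was found in 20 of the 2913 windows (0.687%), against a median knockdown to control ratio of 0.182 over windows, and the 5 receptor windows held the 5 highest knockdown counts among the 20. In them the ratio ran from 1.64 to 3. Of the 20 windows, 6 held input summits, among them the IGK window with 13. No knockdown summit of the 5 receptor windows lay within 1000 bp of an input summit, since their number was 292 with and without removal of such summits. The window on chromosome 7 at 38000001 to 39000000, where the T cell receptor gamma genes (TRG) lie, did not share the pattern, with 9 knockdown and 49 control summits.

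**Figure D3:**
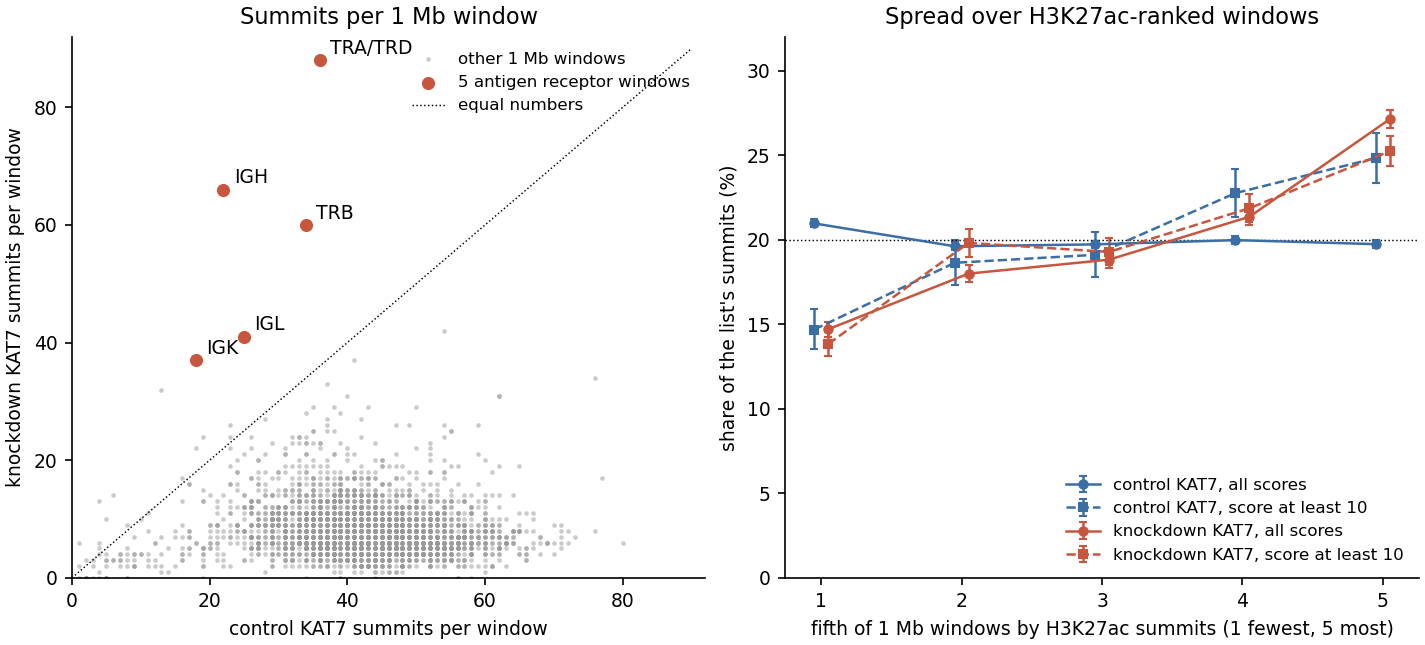
Left, knockdown against control KAT7 summits in each 1 Mb window (grey points), with the 5 antigen receptor windows in red and a dotted line at equal numbers. The receptor windows lie above the line at 37 to 88 knockdown summits. Right, share of each KAT7 list (y axis, percent, exact 95% intervals) in 5 classes of windows ranked by H3K27ac summits, for all scores (solid) and scores of at least 10 (dashed), with a dotted line at equal shares. The solid control line is flat and the other lines rise to 24.8% to 27.1% in the class richest in H3K27ac.

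The knockdown summits of the receptor windows scored higher than the rest of the knockdown list and had a control partner less often. The 292 knockdown summits in the 5 windows, 1.19% of the list, had a median score of 11.6, against 7.67 in the rest of the genome. A score of at least 20 was reached by 97 of them, 33.2% (27.8 to 38.9%), against 16.6% (16.2 to 17.1%) elsewhere. Only 22 of the 292, 7.53% (4.78 to 11.2%), had a control KAT7 summit within 500 bp, against 32.5% (31.9 to 33.1%) elsewhere. H3K27ac was listed within 500 bp of 20 of them after knockdown, 6.85% (4.23 to 10.4%), against 19.1% (18.7 to 19.6%) elsewhere. The 135 control KAT7 summits of the same windows had a median score of 2.68, that of the whole control list, and 0 of them scored 20 or more. The exact interval of that share was 0 to 2.70%, and 0.614% (0.571 to 0.659%) of control summits elsewhere scored 20 or more. The 0 therefore does not set the control summits of these windows apart. Of these control summits 15.6% (9.89 to 22.8%) had a knockdown partner, against 6.61% (6.48 to 6.75%) of control summits elsewhere. The share was thus above the rest of the list on the control side and below it on the knockdown side. The windows were chosen for their many knockdown summits, which by itself raises the share on the control side and can lower it on the knockdown side. Neither share is therefore independent of that choice.

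With score minimums of 3, 10 and 20 the 5 windows stayed among the 8 densest of the knockdown list. They were chosen for their counts in this same list, so high ranks at other minimums were in part set by that choice. Among summits scoring at least 20 they held 33 (TRB), 32 (TRA and TRD), 13 (IGH), 11 (IGL) and 8 (IGK) knockdown summits, at ranks 1, 2, 4, 5 and 8 of all windows and against a median of 1 per window. Together they held 88 of the knockdown summits scoring at least 20 that had no control partner, 6.75% of all such summits. The antigen receptor windows held 19 control and 27 knockdown H3K27ac summits in all, 0.0646% and 0.0848% of those lists. Of the 945 input summits they held 13 (1.38%), all in the IGK window, a share near the 1.19% of the knockdown KAT7 list. Whether the knockdown summits of these windows come from chromatin of the HCT116 cells or from other DNA in that library was not tested, and lists without reads do not tell.

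Within the windows the knockdown summits came in long chains. Joining knockdown summits at most 50 kb apart, a rule chosen after the data were seen, gave the chain with the most summits on chromosome 14 from 22180547 to 22788480, with 62 knockdown and 23 control summits over 607.9 kb. A gap without knockdown summits followed, and then a dense chain from 22940202 to 23008991, with 30 knockdown and 3 control summits over 68.8 kb. Next by number of summits were those on chromosome 14 from 106321616 to 107259798 (52 and 22 summits, over 938.2 kb), chromosome 22 from 22995017 to 23333527 (33 and 10) and chromosome 2 from 89157163 to 89619853 (31 and 12). On chromosome 7 there were chains from 142099728 to 142256884 (27 and 6) and from 142326418 to 142588395 (22 and 9). The 7 chains with the most knockdown summits thus all lay in receptor regions. They held between 0 and 3 H3K27ac summits of either condition each, and 0 input summits.

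**Figure D4:**
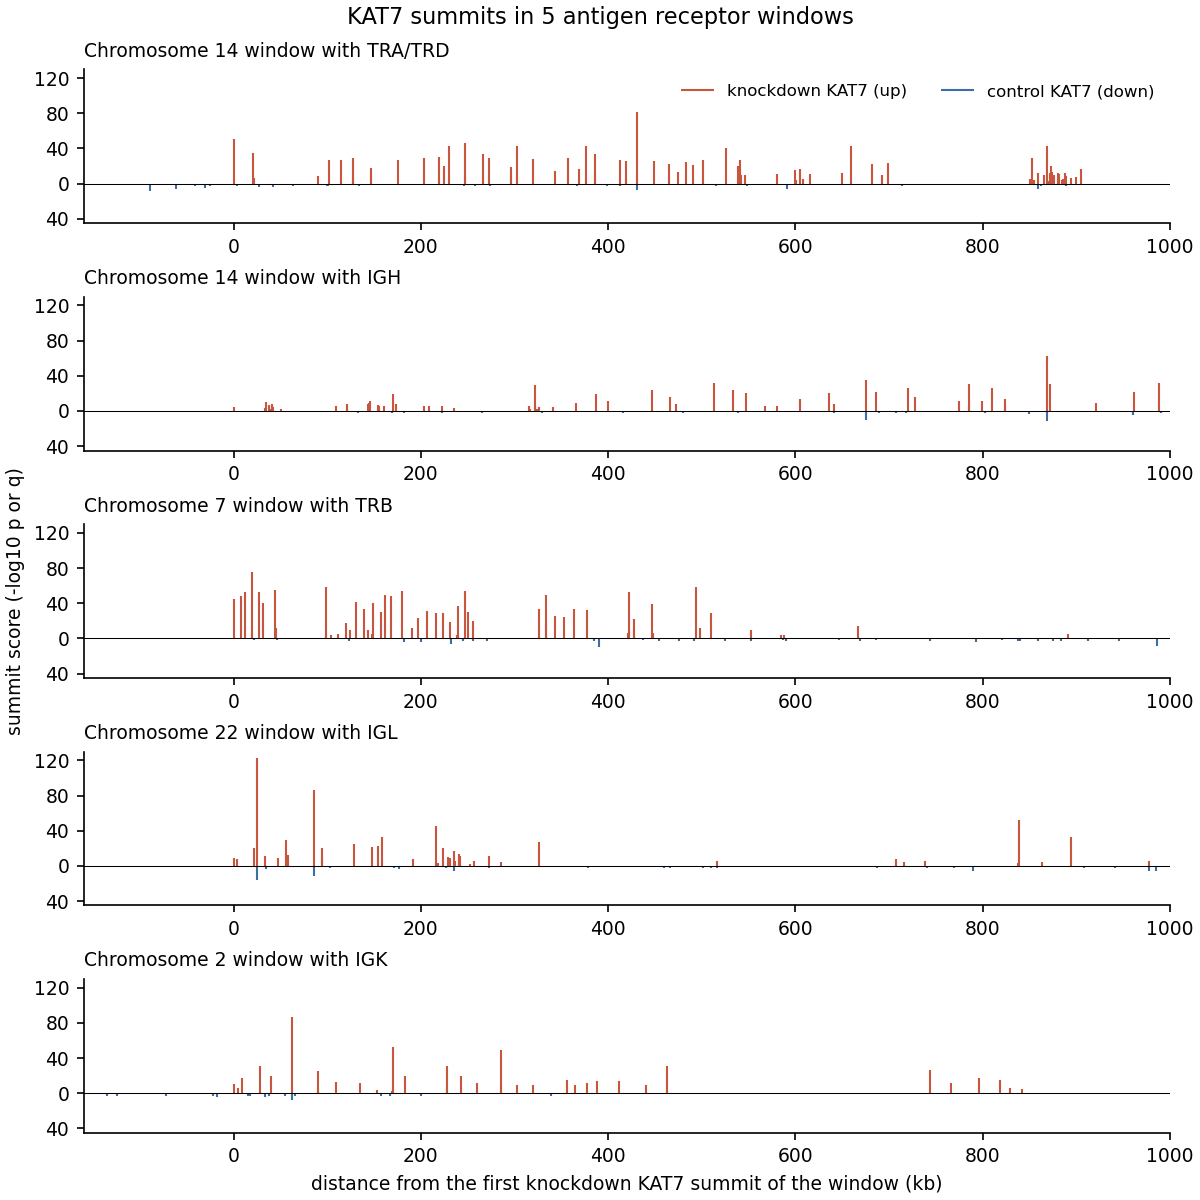
KAT7 summits in the 5 antigen receptor windows, with the score (-log10 p or q) of knockdown summits drawn upward in red and of control summits downward in blue, against the distance in kb from the first knockdown summit of the window. Knockdown scores reach 122.3 on chromosome 22 and 81.4 in the TRA and TRD window, and control scores reach 16.1. Scores of the lists are not on a common scale.

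Some other chains of close knockdown summits were also listed in the control. An evenly spaced one lay on chromosome 1 from 228746073 to 228781816, where general knowledge of the hg19 map places the tandem array of 5S ribosomal RNA genes (RNA5S), which RNA polymerase III transcribes. It held 16 knockdown summits, and 14 of the 15 distances between neighbours were between 2201 and 2268 bp, with a median of 2228 bp. The control list had 11 summits there, and 7 of its 10 distances were between 2207 and 2250 bp. Each control summit lay 4 to 38 bp from a knockdown one. The knockdown scores ran from 7.76 to 46.7 with a median of 31.7, and the control scores from 1.67 to 6.34. Weak control calls in this array therefore fell on the same repeating positions as strong knockdown calls. H3K27ac summits were listed in the array as well, 10 in the control and 14 after knockdown, and 0 input summits. Repeat copies are near-identical, so reads cannot be assigned to single copies with certainty.

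**Figure D5:**
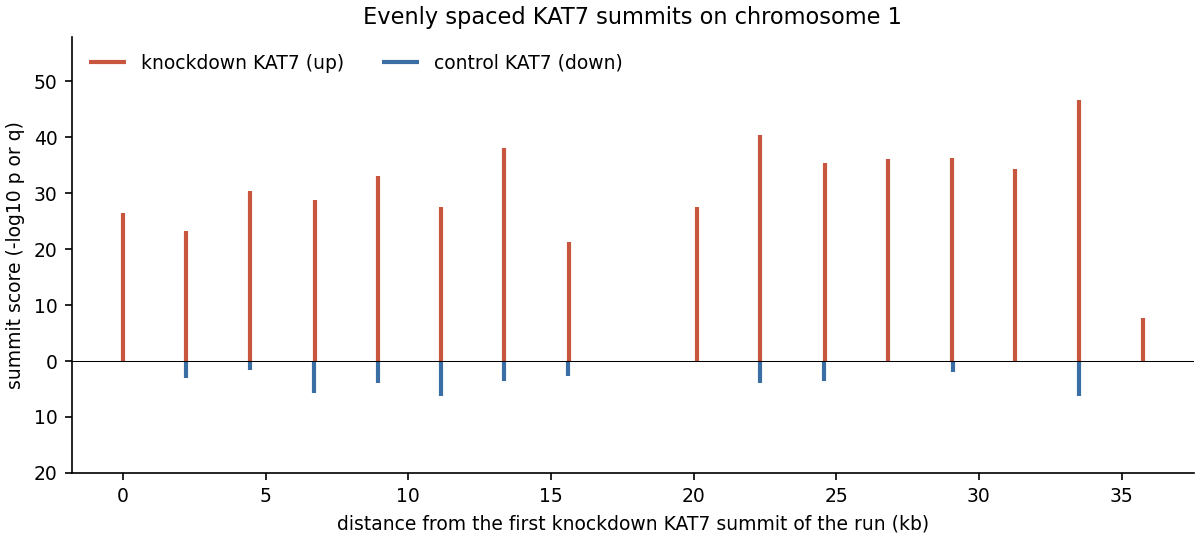
KAT7 summits of the evenly spaced chain on chromosome 1, with knockdown scores (-log10 p or q) drawn upward in red and control scores downward in blue, against the distance in kb from the first knockdown summit. Knockdown summits follow each other about every 2228 bp, and each of the 11 control summits stands at a knockdown summit.

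Chains of 15 knockdown summits lay on chromosome 17 from 7956106 to 8129969 and on chromosome 5 from 180459234 to 180649434, parts of the hg19 map known to hold groups of transfer RNA genes, which RNA polymerase III also transcribes. Of their knockdown summits 11 and 12 had a control partner. On chromosome 17 the control list held 14 KAT7 summits and H3K27ac was listed 30 times in each condition. Chains on chromosome 19 had fewer partners. There 8 of 21 knockdown summits from 1652425 to 1961566, 3 of 15 from 3180480 to 3372006 and 6 of 15 from 47922024 to 47993683 had a control partner. On chromosome Y, from 494946 to 593101, it was 8 of 16. None of the 15 control chains with the most summits lay in the receptor regions. With control summits joined at most 10 kb apart, the chain with the most summits lay on chromosome 21 from 22880914 to 22931813, with 12 control summits, a median score of 2.68, and 0 knockdown KAT7 or H3K27ac summits. The next were chains of 11, on chromosome 1 at 8862450 to 8904157, in the RNA5S array, on chromosome 2 at 32565129 to 32617624 and 223467709 to 223503499, and on chromosome X at 33477717 to 33525273. Of the summits in these chains, the RNA5S array had a knockdown partner for 11 of 11, and the others for 1, 1, 0 and 0.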

How the data were processed

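Bowtie, MACS2 and the build hg19 are named in the submitters' processing notes. Their versions, the calling options and whether input served as the control are not given in these sources. The authors deposited 1 list of 1 bp summits per sample, each with a score that is the -log10 of a p or q value, which of them is not stated. The lowest KAT7 scores lay just above 1.30, the -log10 of 0.05. Peak names carry a tag for duplicate removal. Groups were taken from the sample titles. Peak names of control and knockdown begin alike, so exchanged titles would turn every direction.

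The comparison used SciPy 1.17.1, pandas 2.3.3 and numpy 2.4.6 under Python 3.11.15, with matplotlib 3.10.9 for the plots. Scores were ranked within a list, ties at their mean rank. The pairing and window code was tested on simulated lists. Named positions are the 10 highest-scored summits of each list, the 5 largest falls and rises in percentile, the 5 densest 1 Mb windows of each list and the 3 most isolated summits scoring at least 20. Members and rules were chosen with earlier results of these data known. Sequences and distances to genes were not analysed here, because no hg19 genome or annotation was used.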

Additional observations from a re-analysis of the deposited data

How the results depend on the processing

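No paired analysis was possible because each group held 1 library. Values with no replicate were counted as moved when they left the 95% interval of the main value. The share of control summits with a partner (6.62%) was 5.63%, 6.12%, 7.42% and 8.85% at 100, 250, 1000 and 2000 bp, 11.4%, 22.3% and 36.2% with scores of at least 3, 10 and 20 in both lists, 13.0% with lists of equal length and 6.37% with merged summits. The share of knockdown summits (32.2%) was 27.996%, 30.2%, 35.2% and 40.3% at those distances, 17.0%, 8.21% and 6.57% at those scores and 13.1% with lists of equal length. The ratio of list lengths (0.201) was 0.676 at a score of at least 3 and turned to 2.73 at 10 and 5.51 at 20, so its direction rests on the score minimum. The share in windows richest in H3K27ac was 22.5%, 24.8% and 27.2% for control and 26.5%, 25.2% and 25.9% for knockdown summits at those scores, 20.8% and 28.3% with windows of 100 kb, and 27.99% for knockdown with windows of 5 Mb. The Spearman correlation of scores over pairs (0.40) was 0.33 and 0.30 at scores of at least 10 and 20. The 292 knockdown summits in receptor windows became 164 and 97 at those scores, by construction. Wider distances can only raise the shares, also by construction. Score minimums shorten the list searched for partners, to 751 control summits at a score of at least 20. The cause of the other changes was not tested. The remaining 25 values, among them those without summits near input, on chromosomes 1 to 22 and X, and without the receptor windows (an alternative chosen after seeing the data), stayed within the interval, or for the receptor count within 1.5 times.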

Other observations

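The pseudoautosomal region at the tip of the short arms has the same sequence on chromosomes X and Y. On chromosome Y, 78 knockdown and 97 control KAT7 summits lay within the first 2.6 Mb. Of these, 65 knockdown (83.3%) and 58 control summits (59.8%) had a summit of the same list on chromosome X 50 kb further along, within 500 bp, 50 kb being the offset between the chromosomes in hg19 from general knowledge. Summits of this region are thus in part listed on each chromosome at matching positions.

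Of the 20 windows with more knockdown than control KAT7 summits, 1 on chromosome 8 at 143000001 to 144000000 held 32 and 13, with 42 knockdown H3K27ac summits and 0 input summits. Another on chromosome 4 at 49000001 to 50000000 held 13 and 4, with 66 input summits, the most of any window among the 20.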
